A study of Mus musculus with 18 samples.

Results

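The genes described here are 10 markers of astrocytes and of radial glia, *Fabp7*, *Slc1a3*, *Gfap*, *Aqp4*, *Sparcl1*, *Gja1*, *Apoe*, *Slc1a2*, *Aldoc* and *Aldh1l1*. They were taken by symbol from the deposited expression table, and all 10 were among its 12012 genes. *Fabp7* and *Slc1a3* were treated as radial glia genes and the remaining 8 as genes of maturing astrocytes. The series holds 18 libraries of poly-A RNA from primary cultures of mouse hippocampus labelled as neurons: 5 WT, 5 WT_CSPG, 4 KO and 4 KO_CSPG. FIBCD1 is a membrane receptor for acetylated groups and glycosaminoglycans, and KO cultures carried the *Fibcd1*-/- genotype (a constitutive deletion allele, Fibcd1tm1Lex, on C57BL/6J), while WT cultures carried wild-type *Fibcd1*. Hippocampi of E18.5 pups were dissociated and plated in a medium with foetal calf serum, and the WT_CSPG and KO_CSPG cultures were both grown on a coating of chondroitin sulphate proteoglycans (CSPGs), the sulphated sugar-bearing proteins of the brain extracellular matrix. The table gives 8 of the libraries, replicates A to D of WT_CSPG and of KO_CSPG, so the comparison made here is of genotype on CSPGs, and the 10 libraries of the other samples were not analysed here. The deletion was present in every cell of the animal, so an effect on glia cannot be told apart from an effect of other cells upon them.

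Radial glia are the progenitors of the embryonic brain: they span its wall, divide to give neurons and, towards birth, turn to making astrocytes. FABP7 (brain lipid-binding protein) carries fatty acids in radial glia, and SLC1A3 (GLAST) is a glutamate transporter that is present in radial glia and stays on in astrocytes. Maturing astrocytes add the intermediate filament protein GFAP, the water channel AQP4, the gap junction protein connexin 43 (*Gja1*), the secreted synapse-promoting matrix protein SPARCL1, the glutamate transporter GLT-1 (*Slc1a2*), the lipid carrier apolipoprotein E, and the enzymes aldolase C and ALDH1L1 of sugar and folate metabolism. In the embryo, JAK-STAT and Notch signalling act together with NFI and SOX transcription factors at the start of astrocyte genes. Cultures of embryonic hippocampus hold some glia beside the neurons, and in bulk RNA more cells of a type and more RNA per cell cannot be told apart.

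Promoter windows of 3 of the genes are shown as examples, and each holds a match to a motif of the above factors. Matches were also found for *Aldoc*, *Apoe* and *Aldh1l1*, and no link between a match and the values of a gene was tested. Each window runs from 250 bases before to 50 bases after a transcript start (RefSeq, GRCm38.p6), is written 5′ to 3′ on the strand of the gene, and has the motif matches in capitals. The *Fabp7* window lies at chr10:57784673-57784972 on the plus strand and has a SOX match (ACAAT, here on the opposite strand) at bases 53 to 57 and a match to the Notch effector CSL (TGGGAA, opposite strand) at bases 2 to 7. The *Slc1a3* window lies at chr15:8710758-8711057 on the minus strand, with a STAT match (TTCNNNGAA) at bases 155 to 163 and a SOX match at bases 139 to 143. The *Gfap* window lies at chr11:102897151-102897450 on the minus strand, with a STAT match at bases 249 to 257 and a CSL match at bases 136 to 141.
Fabp7: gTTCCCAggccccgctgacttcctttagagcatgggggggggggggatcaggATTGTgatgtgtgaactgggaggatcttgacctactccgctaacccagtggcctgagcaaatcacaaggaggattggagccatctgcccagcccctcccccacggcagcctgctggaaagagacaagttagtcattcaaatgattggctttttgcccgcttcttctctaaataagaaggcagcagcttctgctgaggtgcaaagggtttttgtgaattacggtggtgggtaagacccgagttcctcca
Slc1a3: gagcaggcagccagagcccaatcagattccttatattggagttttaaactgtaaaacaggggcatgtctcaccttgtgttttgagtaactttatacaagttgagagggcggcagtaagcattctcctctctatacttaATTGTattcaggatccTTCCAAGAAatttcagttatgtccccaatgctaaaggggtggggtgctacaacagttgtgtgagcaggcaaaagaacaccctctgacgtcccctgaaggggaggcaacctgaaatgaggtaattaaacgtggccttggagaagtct
Gfap: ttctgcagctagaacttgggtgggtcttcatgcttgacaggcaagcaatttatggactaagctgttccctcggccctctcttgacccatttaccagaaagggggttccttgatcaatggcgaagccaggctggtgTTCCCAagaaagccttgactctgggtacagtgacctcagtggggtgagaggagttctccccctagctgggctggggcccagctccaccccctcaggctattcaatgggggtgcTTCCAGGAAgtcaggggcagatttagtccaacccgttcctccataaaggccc
Motifs were searched on both strands, over 11 windows of 8 of the 10 genes. No window of *Aqp4* or *Sparcl1* was searched, so the counts below do not cover them. STAT was found in 3 of the 11 windows (of *Aldoc*, *Gfap* and *Slc1a3*) and in 8.30% of 32851 mouse windows of the same length. SOX was found in 4 of the 11 windows against 31.0% of all windows, CSL in 6 of 11 against 25.6%, and NFI (TTGGCA) in 2 of 11 against 14.1%. None of the 4 motifs was matched in the windows of *Gja1* and *Slc1a2*. The only *Slc1a2* window, at chr2:102706188-102706487, lies inside a gene that starts at 102658659. Likewise the *Aldh1l1* window starts at 90550543 on chr6, inside a gene that starts at 90486427. The regions at these gene starts were not searched. A match is a run of letters in the window and was not shown to be a site of binding.

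Reads per library were inferred from the steps between the deposited values and summed over the 12012 genes only. They ranged from 10099564 to 11174615 in WT_CSPG and from 10541445 to 11647202 in KO_CSPG. Values are normalised counts, that is, reads scaled by the size factor of each library. The least covered of the 10 genes had at least 570 inferred reads in every library. *Fibcd1* had a mean of 91.8 ± 60.8 (SD, n = 4) normalised counts in WT_CSPG and 3.45 ± 3.05 in KO_CSPG (log2 difference -4.48 ± 0.58, SE, limma adjusted p = 0.00599). One library stood apart for the genes described here: WT_CSPG A had the lowest value of its group in 8 of the 10 genes, against 25.5% of all 12012 genes. The log2 difference of each of the 10 genes is therefore given with and without it. The paper describes its replicates as biological, each being a preparation of cells. Whether the preparations came from separate litters is not stated in the labels, and p-values measure the spread between these libraries.

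Per length, *Fabp7*, *Gfap* and *Apoe* were the most abundant of the 10 transcripts. Normalised counts per kilobase of the principal transcript, averaged over the 8 libraries, were 9893 ± 1027 (SD) for *Fabp7*, 7769 ± 559 for *Gfap* and 5446 ± 532 for *Apoe*. The ranges of *Fabp7* and *Gfap* over the libraries overlapped, but within each of the 8 libraries *Fabp7* was the higher. *Apoe* lay below both. *Sparcl1* (1739 ± 205), *Slc1a3* (1255 ± 89.7), *Aldoc* (779 ± 72.5) and *Aqp4* (725 ± 108) came next, of which *Aldoc* and *Aqp4* overlapped. *Slc1a2* (408 ± 32.3) and *Gja1* (393 ± 51.0) also overlapped, and *Aldh1l1* (170.2 ± 14.7) was the lowest. With the gene lengths of the table, which equal the summed exons of the GENCODE M21 gene for 8 of the 10 genes and are shorter for *Gja1* and *Aqp4*, *Slc1a3* moved from 5th to 7th, *Aqp4* from 7th to 5th, and *Gja1* and *Slc1a2* changed places, so these orders rest on the length used. On that scale 10 neuron markers ran from 154 (*Rbfox3*) through a median of 1310 to 8269 (*Tubb3*), and the 10 glial genes from 157 (*Aldh1l1*) to 6363 (*Fabp7*), so the cultures labelled as neurons also held abundant glial transcripts.

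**Figure D1:**
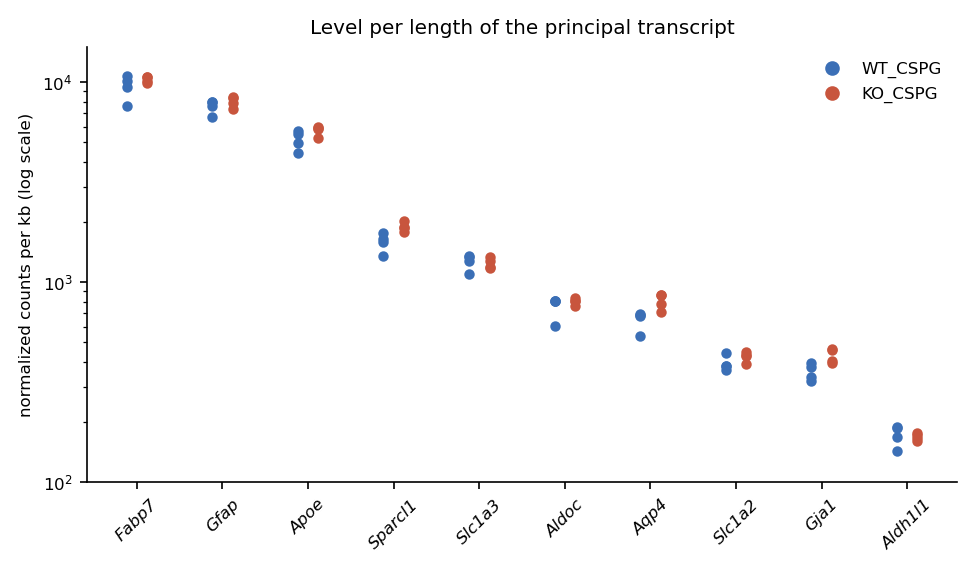
Normalised counts per kilobase of the principal transcript of each gene (log axis), with a point for each of the 8 libraries, coloured by group. *Fabp7* and *Gfap* are highest and *Aldh1l1* lowest, and neighbours such as *Slc1a2* and *Gja1* overlap.

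Neither radial glia gene passed the test, and the groups overlapped in both. *Fabp7* lies at chr10:57784881-57788450 on the plus strand and its principal transcript has 4 exons. *Fabp7* had 6097, 8151, 7607 and 8664 normalised counts in WT_CSPG A to D and 8516, 7934, 8497 and 8167 in KO_CSPG A to D. WT_CSPG A was low and the other libraries overlapped. The means were 7630 ± 1109 and 8279 ± 280 (SD, n = 4 each), a log2 difference of 0.13 ± 0.11 (SE; adjusted p = 0.657), and without WT_CSPG A it was 0.026 (adjusted p = 0.833). *Slc1a3*, at chr15:8634124-8710764 on the minus strand with 10 exons in its principal transcript, had 4588, 5600, 5286 and 5585 in WT_CSPG and 5568, 5302, 4884 and 4986 in KO_CSPG. Its groups overlapped, with means of 5265 ± 474 and 5185 ± 311 and a log2 difference of -0.02 ± 0.07 (adjusted p = 0.934), and -0.084 without WT_CSPG A (adjusted p = 0.349).

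Of the maturing astrocyte genes, *Aqp4*, *Sparcl1* and *Gja1* had the largest differences, all towards higher values in KO_CSPG, and none of them passed the test. *Aqp4* (chr18:15389394-15403684, minus strand, 5 exons) encodes the water channel of astrocyte end-feet. Its normalised counts were 2720, 3485, 3451 and 3404 in WT_CSPG A to D and 4384, 4338, 3947 and 3583 in KO_CSPG A to D. Every KO_CSPG library was above every WT_CSPG library. The means were 3265 ± 365 and 4063 ± 375, a log2 difference of 0.32 ± 0.11 (95% interval 0.06 to 0.58, adjusted p = 0.216), and without WT_CSPG A the log2 difference was 0.23 (adjusted p = 0.123).

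*Sparcl1* (chr5:104079111-104113733, minus strand, 11 exons) encodes a matrix protein secreted by astrocytes. It had 3741, 4535, 4387 and 4876 normalised counts in WT_CSPG and 5556, 5196, 5153 and 4945 in KO_CSPG. Again the groups did not overlap, although WT_CSPG D came close to KO_CSPG D. The log2 difference was 0.25 ± 0.08 (95% interval 0.06 to 0.45, adjusted p = 0.188) and, without WT_CSPG A, 0.18, which passed (adjusted p = 0.0187), and it also passed without WT_CSPG D (0.31, adjusted p = 0.0434). *Gja1* (chr10:56377300-56390419, plus strand, 2 exons) encodes connexin 43, which couples astrocytes through gap junctions. Its values were 1068, 1197, 1022 and 1253 in WT_CSPG and 1456, 1480, 1250.3 and 1279 in KO_CSPG. KO_CSPG C fell just under WT_CSPG D, so the groups overlapped by this 1 pair of libraries. The log2 difference was 0.27 ± 0.08 (95% interval 0.10 to 0.44, adjusted p = 0.112), the smallest adjusted p of the 10 genes. It was 0.24 without WT_CSPG A (adjusted p = 0.224), and 0.32 without WT_CSPG D, where it passed (adjusted p = 0.0172).

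The remaining 5 maturing astrocyte genes had smaller differences, and their groups overlapped. *Apoe* (chr7:19696109-19699188, minus strand, 4 exons), the main lipid carrier made by astrocytes, had 6250, 7777, 6962 and 8027 in WT_CSPG and 8377, 8278, 8255 and 7422 in KO_CSPG (log2 difference 0.16 ± 0.09, adjusted p = 0.452). Here KO_CSPG D was low beside the other KO_CSPG libraries, and without WT_CSPG A the log2 difference was 0.092 (adjusted p = 0.507). *Slc1a2* (chr2:102658659-102790784, plus strand, 11 exons), which clears glutamate from synapses, had 4423, 5156, 4218 and 4435 in WT_CSPG and 4990, 5164, 4503 and 4954 in KO_CSPG (0.11 ± 0.07, adjusted p = 0.502). WT_CSPG B was at the KO_CSPG level and WT_CSPG A was not its lowest library. The log2 difference of *Slc1a2* was 0.095 without WT_CSPG A (adjusted p = 0.669), and without WT_CSPG B it was 0.17 and passed (adjusted p = 0.0206). *Gfap* (chr11:102887336-102900912, minus strand, 9 exons), the filament protein of astrocytes, had 17695, 21075, 21035 and 20038 in WT_CSPG and 22279, 22072, 20837 and 19538 in KO_CSPG (0.09 ± 0.07, adjusted p = 0.625). Without WT_CSPG A the log2 difference of *Gfap* was 0.030 (adjusted p = 0.806). With a mean of 20571 it was the 16th highest of all 12012 genes. The glycolytic enzyme gene *Aldoc* (chr11:78322968-78327781, plus strand, 9 exons) had 1689 in WT_CSPG A and 2245 to 2250.01 in WT_CSPG B to D, and 2129 to 2328 in KO_CSPG (0.09 ± 0.10, adjusted p = 0.742). Its mean without WT_CSPG A, 2247 ± 2.66, was slightly above the KO_CSPG mean of 2234 ± 81.6, with a log2 difference of -0.0092 (adjusted p = 0.946). *Aldh1l1* (chr6:90486427-90600203, plus strand, 23 exons), a folate enzyme used as a general astrocyte marker, had 596, 702, 788 and 782 in WT_CSPG and 731, 697, 720 and 671 in KO_CSPG (-0.02 ± 0.07, adjusted p = 0.949, and -0.10 without WT_CSPG A, adjusted p = 0.403).

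**Figure D2:**
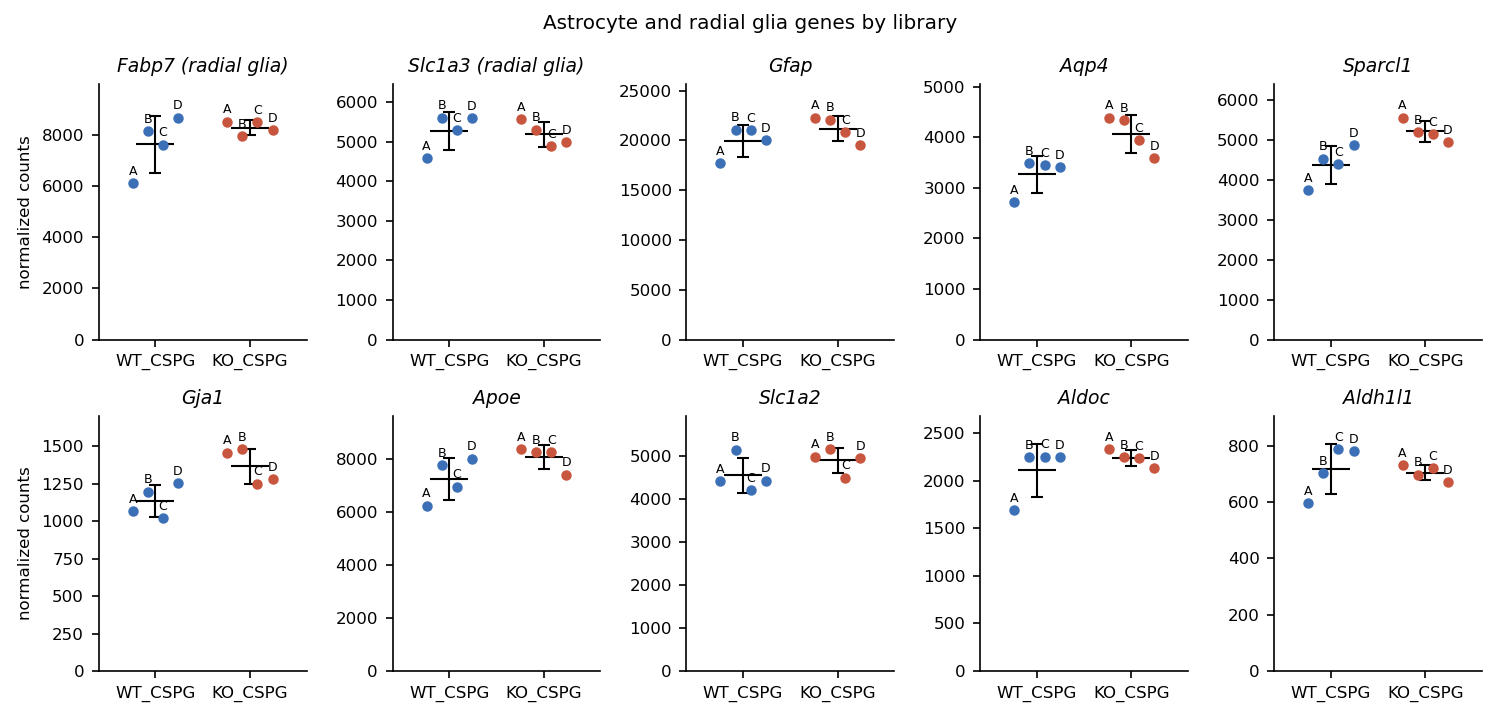
Normalised counts of each of the 10 genes in the WT_CSPG and KO_CSPG libraries A to D, with a bar for the mean ± SD of each group (n = 4) and vertical axes that start at 0. The KO_CSPG points of *Aqp4* and *Sparcl1* lie above every WT_CSPG point, and WT_CSPG A is the lowest point of its group in 8 of the genes.

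Across the 10 genes, 8 had a higher mean in KO_CSPG and 2, *Slc1a3* and *Aldh1l1*, a lower one. By limma with Benjamini-Hochberg adjustment over all genes, 0 of the 10 passed an adjusted p of 0.05, against 2.88% of all genes in either direction and 1.09% in the direction of KO_CSPG, while 3 had an unadjusted p under 0.05. The 346 genes that passed were 131 higher and 215 lower in KO_CSPG, and 182 and 178 after upper-quartile scaling. Groups did not overlap, with KO_CSPG higher, in 2 of the 10 (*Aqp4* and *Sparcl1*), against 4.05% of all genes. The median log2 difference was 0.12 over the 10 genes, 0.05 over the radial glia pair and 0.13 over the 8 maturing astrocyte genes, and 0.00016 over all genes. Without WT_CSPG A these medians were 0.061 over the 10 genes, -0.029 over the radial glia pair and 0.093 over the maturing astrocyte genes, and 7 of the 10 log2 differences were positive. With the level of the Y-linked genes as a covariate, the 8 positive log2 differences all became negative and none passed. Genotype accounted for 91.2% of the variance of that level, and the SE of *Aqp4* rose from 0.11 to 0.30. That fit could not separate the Y-linked level from genotype, and no conclusion is drawn from these signs. Under an alternative without robust shrinkage of the gene-wise variance, *Aqp4*, *Sparcl1* and *Gja1* passed.

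**Figure D3:**
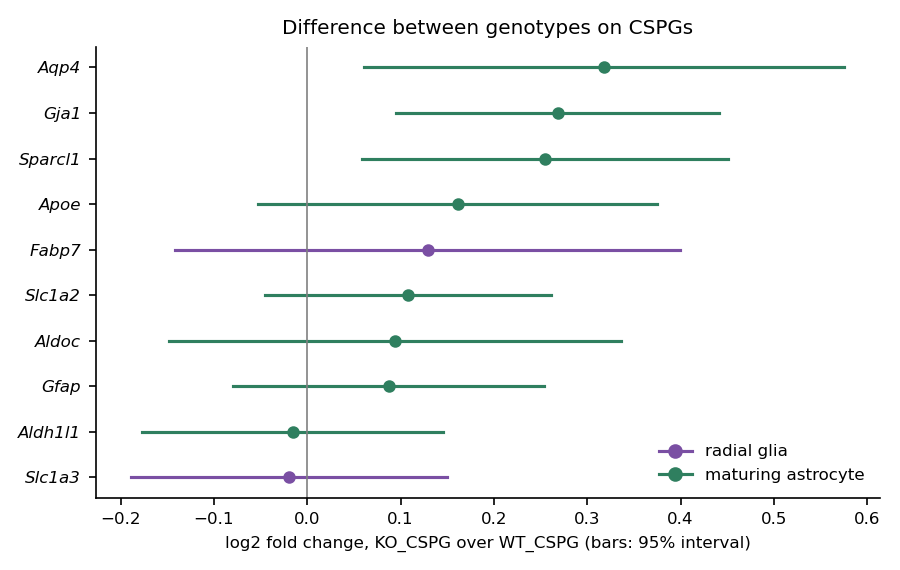
Log2 difference of KO_CSPG from WT_CSPG for each of the 10 genes, with its 95% interval from limma. The intervals of *Aqp4*, *Sparcl1* and *Gja1* lie above 0 before adjustment for the 12012 genes tested, and the others include 0.

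Together the 10 genes made up 0.449% to 0.548% of all normalised counts in WT_CSPG and 0.533% to 0.595% in KO_CSPG. Much of their variation lay within a group. The SD was larger in WT_CSPG than in KO_CSPG for 8 of the 10 genes, and in all 10 every KO_CSPG library was above WT_CSPG A. The share of all genes was not taken for either count, and WT_CSPG A had been singled out as low in these genes. *Fabp7* in WT_CSPG A was 25.1% below the mean of WT_CSPG B to D, *Aldoc* 24.9%, *Aldh1l1* 21.3%, *Aqp4* 21.1% and *Sparcl1* 18.7%, whereas *Slc1a2* was 3.91% below. The median log2 deviation from the group mean in WT_CSPG A was -0.22 over the 10 genes, -0.14 over 32 other astrocyte genes and 0.02 over 10 neuron markers. Of those 32 genes, 25 had their lowest WT_CSPG value in A, as had 14 of 17 other radial glia and progenitor genes and 1 of the 10 neuron markers. For all genes that share was 25.5%. In KO_CSPG the highest value was in A for 8 of the 10 genes, against 23.2% of all genes. The lowest was in D for 6 of the 10, against 25.1%. This common movement was across libraries of the same group, and its source was not tested.

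**Figure D4:**
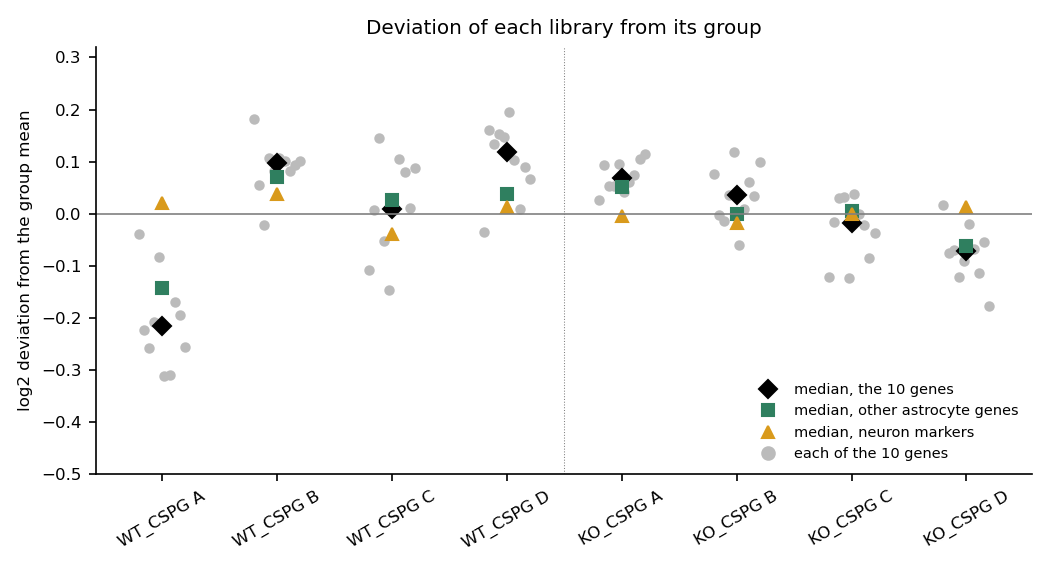
Log2 deviation from the group mean in each library, with grey points for the 10 genes. Black, green and orange markers give the medians of the 10 genes, of other astrocyte genes and of neuron markers. The glial medians drop together in WT_CSPG A to -0.22 and -0.14, and the neuron median stays at 0.02.

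To set the maturing astrocyte genes against radial glia genes within the same library, the log2 value of each was taken relative to the mean log2 value of *Fabp7* and *Slc1a3*, a measure chosen after the values had been seen. On this scale *Sparcl1* lay at -0.57 to -0.50 in WT_CSPG and -0.37 to -0.31 in KO_CSPG, and *Aqp4* at -1.03 to -0.88 and -0.83 to -0.58. Both sets were apart, by 0.20 and 0.26 on average, and WT_CSPG A no longer lay outside its group. The other 6 genes overlapped, with differences from -0.07 (*Aldh1l1*) to 0.21 (*Gja1*). The groups did not overlap, with KO_CSPG higher, for 0.533% of 12010 genes on this scale. Nothing is read from that share, because *Aqp4* and *Sparcl1* already did not overlap without the division and because *Fabp7* and *Slc1a3* were both low in WT_CSPG A.

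Other genes of the same cells had calls in both directions. Over all 12012 genes, 2.88% passed and 1.09% passed as higher in KO_CSPG, and 50.1% had a higher mean in KO_CSPG, and the counts of each list stand beside these shares. Of 17 other radial glia and progenitor genes measured (18 listed), 12 had a higher mean in KO_CSPG, 0 passed as higher and 1 as lower, *Nes*, the filament protein of neural progenitors (1273 ± 50.8 against 1096 ± 25.3, log2 -0.22, adjusted p = 0.0019). *Ednrb*, an endothelin receptor of radial glia and astrocytes, was higher by 0.24 and did not pass (adjusted p = 0.0700), but passed without WT_CSPG A (adjusted p = 0.0412), WT_CSPG D (0.0130) or KO_CSPG D (0.0198). The Notch target gene *Hes5* (140.5 ± 31.2 against 175.2 ± 12.3, adjusted p = 0.129) and the Hedgehog pathway factor gene *Gli3* (185.9 ± 18.3 against 158 ± 17.5, adjusted p = 0.185) did not pass either, and *Hes5* passed without WT_CSPG D (log2 0.48, adjusted p = 0.0027). Of 32 other astrocyte genes (40 listed), 24 had a higher mean in KO_CSPG with a median of 0.06. *F3*, tissue factor, passed as higher (110.6 ± 18.1 against 144.5 ± 11.5, log2 0.39, adjusted p = 0.0491), and it no longer passed when any 1 of 7 of the 8 libraries, each but WT_CSPG C, was left out (adjusted p from 0.0509 to 0.157). *Sparc*, a matrix protein related to SPARCL1, passed as lower (1687 ± 91.5 against 1447 ± 101.3, log2 -0.22, adjusted p = 0.0108), opposite in sign to *Sparcl1*. *Glul*, the glutamine synthetase that recycles the glutamate taken up by GLAST and GLT-1, had 2554 ± 216 against 2895 ± 162 normalised counts and did not pass (adjusted p = 0.163).

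Of 20 transcription and Notch factors of astrocyte fate, 1 passed as higher and 2 as lower. Over all 12012 genes, 1.09% passed as higher and 2.88% in either direction, and 50.1% had a positive log2 difference. *Olig2*, a factor of oligodendrocyte precursors and of some astrocyte progenitors, rose by 0.79 (163.5 ± 19.7 against 283 ± 17.5, adjusted p = 1.2e-06). *Lhx2*, a factor that holds back astrocyte formation in the hippocampus, fell by 0.18 (adjusted p = 0.0065) and the receptor gene *Notch2* fell by 0.23 (adjusted p = 0.0113). *Notch2* no longer passed without KO_CSPG C (adjusted p = 0.0558). *Nfib*, a factor that promotes gliogenesis, had 11796 ± 384 against 11068 ± 267 and did not pass (adjusted p = 0.0695). It passed without WT_CSPG D (adjusted p = 0.0280) and with the replicate letters as a block (adjusted p = 0.0469). The median of the list was -0.03. All 9 reactive astrocyte genes in the table (19 listed) had lower means in KO_CSPG with a median of -0.18, and *Emp1*, a membrane protein gene, and *Cd109*, a surface protein gene, passed (log2 -0.55, adjusted p = 0.0016, and -0.29, adjusted p = 0.0165). *Cd109* no longer passed when WT_CSPG B or C or KO_CSPG A or C was left out (adjusted p from 0.0517 to 0.0795). *Osmr*, the oncostatin M receptor gene (156.4 ± 16.3 against 125.4 ± 9.65, adjusted p = 0.0799), and *Cd44*, the hyaluronan receptor gene (656 ± 29.9 against 587 ± 44.1, adjusted p = 0.114), did not pass. None of the 12 genes of apolipoprotein E lipid handling passed, and 6 of them had higher means in KO_CSPG. The lipoprotein receptor gene *Vldlr* had 1482 ± 30.7 against 1364 ± 53.4 (adjusted p = 0.0853, and 0.0418 without KO_CSPG B), and *Lcat*, which esterifies cholesterol on lipoprotein particles, 61.1 ± 8.33 against 78.5 ± 8.43 (adjusted p = 0.156).

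**Figure D5:**
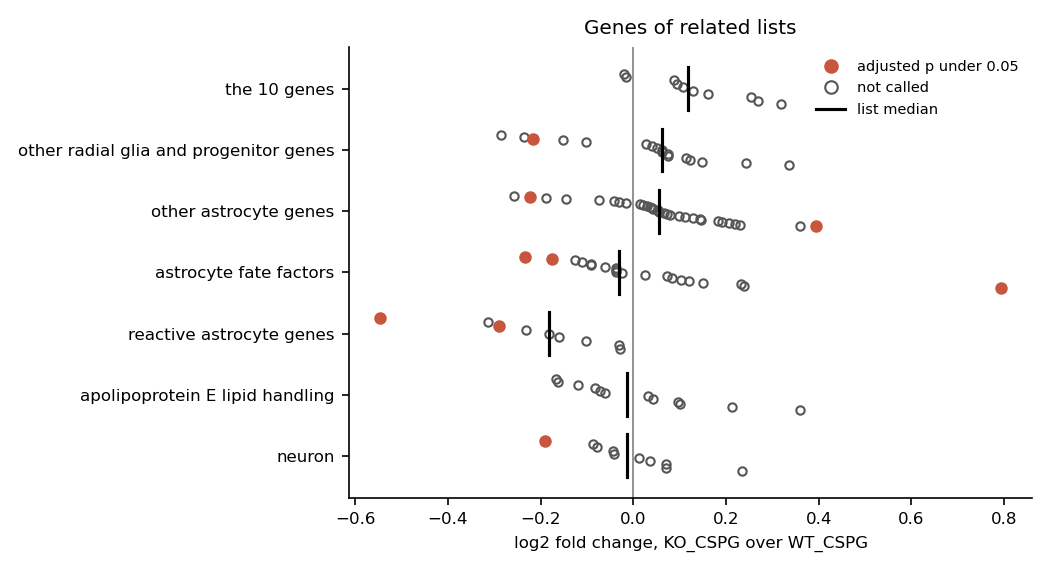
Log2 difference of KO_CSPG from WT_CSPG for the genes of each list, with filled points for an adjusted p under 0.05 and a line at the median. The reactive astrocyte genes lie below 0 with a median of -0.18, and the 10 genes have a median of 0.12.

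Markers of other cells moved beside these values. Of all 12012 genes, 2.88% passed, 1.09% passed as higher in KO_CSPG, and 50.1% had a positive log2 difference. The summed normalised counts of 10 oligodendrocyte lineage genes were 1401 to 1837 in WT_CSPG and 2052 to 2260 in KO_CSPG, without overlap. Among them *Olig1* and *Olig2* passed as higher. Single genes of this list differed, with 8 log2 differences positive and 2 negative. They ran from -0.30 (*Bcas1*) to 1.03 (*Pdgfra*, limma adjusted p = 0.253), and *Mbp* (0.01) and *Gpr17* (-0.02) were near 0. The 8 microglia markers in the table summed to 2267 to 2749 and 2461 to 2991, with 0 passing. All 8 had positive log2 differences, with a median of 0.13. The 10 neuron markers summed to 91493 to 97407 and 90306 to 93187, with 5 log2 differences positive and 5 negative. Of these, *Neurod6*, a factor of excitatory neurons, passed as lower (log2 -0.19, limma adjusted p = 0.0118). None of 10 cycling genes and 7 fibroblast and mural genes passed. All 7 fibroblast and mural log2 differences were positive (median 0.36), and of the cycling ones 4 were positive and 6 negative. Only 1 of 8 endothelial markers (*Kdr*) was in the table. The 4 choroid plexus genes summed to 623 to 4347 and 601 to 885, and all 4 had negative log2 differences. All 4 Y-linked genes were lower in KO_CSPG, with sums of 1557 to 1935 against 878 to 1092, and genotype accounted for 91.2% of the variance of their level. The part of these differences in the results for the astrocyte genes was not tested for cell markers, and the Y-linked level and the genotype cannot be told apart.

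The genes nearest to the shared pattern of the 10 genes across the 8 libraries, outside all lists, were *Wipf3*, *Axl* and *Kcnip3*, with root mean square differences of scaled deviations within groups of 0.189, 0.196 and 0.215. The median over all genes was 1.41. Of the 10 genes themselves *Slc1a3* (0.253) and *Sparcl1* (0.268) were nearest to the pattern, and *Gja1* (0.803) and *Slc1a2* (1.13) farthest. Likeness here rests on 8 libraries and, for the 10 genes, on values that enter the pattern.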

How the data were processed

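Poly-A RNA was sequenced by the authors as single-end reads on NEBNext Ultra libraries. The submitters' processing notes name mm10 and DESeq2, and the aligner and the counter are not given in the sources used here. The authors deposited a normalised signal per library, reads divided by a size factor, for genes of a mean of at least 40.7. The columns of their own comparison (fold changes, p-values) were not used. Values were analysed as log2(value + 1) with limma 3.58.1 in R 4.3.3, with trend and robust variance, no covariate, and Benjamini-Hochberg adjustment over 12012 genes. A gene passed at an adjusted p of 0.05. The genes and lists (other radial glia, other astrocyte, fate factor, reactive astrocyte, lipid handling and other-cell markers) were chosen with earlier results of these data known. Named genes were the 10 and, from each list of related genes, up to 4 of the lowest p. Markers of neurons, the oligodendrocyte lineage and microglia were named where they passed. *Fibcd1* and the 3 genes nearest to the pattern of the 10 were added. Gene positions come from the deposited table, and 8 of the 10 genes had the same coordinates in GENCODE M21 (GRCm38). Principal transcripts and their exons come from GENCODE M21. Replicate letters were treated as names only.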

Additional observations from a re-analysis of the deposited data

Results flagged for a closer look

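Of 64 groups of 4 libraries examined for the 32 named genes, 7 had a library far from the other 3, where chance gives 3.2 (1 in 20). *Aldoc* and *Aqp4* were low in WT_CSPG A, at 1689 (others 2245 to 2250.01) and 2720 (others 3404 to 3485) normalised counts, and *Olig1* was also low there, at 369 (others 424 to 428). *Apoe* was low in KO_CSPG D at 7422 (others 8255 to 8377), and *Lcat* was high there at 91.0 (others 72.7 to 75.7). *Gli3* was high in WT_CSPG B at 213 (others 175.5 to 178), and *Fibcd1* was high in WT_CSPG D at 182 (others 54.3 to 70.4). The cause of these values was not tested.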

How the results depend on the processing

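The 346 genes that passed were 80 without the trend in the prior variance, 2 with the level of the Y-linked genes as a covariate, and 186 to 576 when 1 library was left out, the fewest without KO_CSPG A and the most without WT_CSPG D. Of the 10 genes, 0 passed, but 3 without the robust prior (*Aqp4*, *Gja1*, *Sparcl1*) and 0 to 2 when 1 library was left out: *Sparcl1* without WT_CSPG A or D (adjusted p = 0.0187 and 0.0434), *Slc1a2* without WT_CSPG B (0.0206) and *Gja1* without WT_CSPG D (0.0172). Of the other list genes 8 passed, and 1 without the trend, 0 with the Y-linked covariate and 5 to 11 when 1 library was left out, the fewest without KO_CSPG C. With the Y-linked covariate, which shares 91.2% of its variance with genotype, the log2 difference turned to -0.31 for *Aldoc*, -0.28 for *Apoe*, -0.21 for *Aqp4*, -0.11 for *Ednrb*, -0.20 for *Fabp7*, -0.26 for *Gfap*, -0.15 for *Gja1*, -0.12 for *Glul*, -0.27 for *Slc1a2* and -0.018 for *Sparcl1*, with none passing. When 1 library was left out, the signs of *Aldh1l1* (-0.10 to 0.033), *Aldoc* (-0.0092 to 0.13) and *Slc1a3* (-0.084 to 0.012) varied. Same-lettered libraries correlated at -0.07, 0.10, 0.28 and -0.01 for A to D, and 4 of 8 libraries correlated best with their own letter. These values do not settle whether the letters are pairs, and the main fit did not treat them as pairs. With a replicate block, 429 genes and 2 of the 10 passed, *Gja1* (adjusted p = 0.0133) and *Slc1a2* (0.0476). Pseudocounts of 0.1 and 10, a mean value of at least 100, upper-quartile scaling and leaving out pseudogenes and the genes of the sex chromosomes, the last chosen after the data were seen, moved none of the 3 counts by over 1.5 times. The cause of these changes was not tested. TMM scaling, edgeR and DESeq2 were planned on recovered reads and were not run.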
